A study of Mus musculus with 2 samples.

Results

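The miR-200 family (miR-200a, miR-200b, miR-200c, miR-141 and miR-429) together with miR-203 and miR-205 was examined in small RNA sequencing of the E9.5 heart. These miRNAs were taken by name, as every hairpin precursor whose mature miRNA carried 1 of the 7 names, ignoring the species prefix and the arm, which gave 7 of the 568 precursors listed in replicate 1 and 6 of the 523 listed in replicate 2. In the union of both replicates they were 7 of 620 precursors, and 6 of the 7 were among the 471 listed in both. Each precursor is called an entry here.

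The libraries came from total RNA of hearts of wild type C57BL/6 mouse embryos at embryonic day 9.5, in a single group of 2 replicates with no treatment and no second group. No conditions could therefore be compared, and each value below is a level in this tissue or a difference between the 2 libraries. The authors mapped the reads with miRDeep2, which assigns reads to the mature arm, the loop and the opposite (star) arm of each hairpin. Summed over all entries, mature arms held 4942257 reads in the first library and 4806179 in the second. These sums count a mature sequence again at each hairpin that lists it. With each mature sequence counted once, the sums were 3619523 and 3499739. The labels do not say how many hearts went into a library or whether the replicates came from separate embryos, so the spread between them may be technical.

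miRNAs of the miR-200 family are best known from epithelial cells, where they repress the transcription factors Zeb1 and Zeb2 and thereby hold back the change from an epithelial to a mesenchymal state. They are made from a pair of gene clusters and fall into sets that share a seed, the stretch near the 5′ end of a miRNA that chooses its targets. miR-203 is best known from the skin, where it restrains p63 and with it the stem cell state of the epidermis, and miR-205 is abundant in stratified and glandular epithelia and also acts on Zeb1 and Zeb2. Heart muscle, endothelium and the mesenchyme of the heart are marked by other miRNAs, among them miR-1a, miR-126a and miR-199a.

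The mature sequences are shown because the seed decides how the 7 miRNAs group. Each is written from the 5′ to the 3′ end as the tables gave it, with the seed (bases 2 to 8) in capitals:
miR-200b-3p: uAAUACUGccugguaaugaugac
miR-200c-3p: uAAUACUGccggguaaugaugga
miR-429-3p: uAAUACUGucugguaaugccg
miR-200a-3p: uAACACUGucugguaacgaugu
miR-141-3p: uAACACUGucugguaaagauggc
miR-203-3p, replicate 1: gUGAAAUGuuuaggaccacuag
miR-203-3p, replicate 2: uGAAAUGUuuaggaccacuag
miR-205-5p: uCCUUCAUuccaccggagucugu

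The seed AAUACUG was shared by miR-200b, miR-200c and miR-429, and the seed AACACUG by miR-200a and miR-141. Both seeds differ by U4C from the first to the second, with positions counted from 1 at the 5′ end of the miRNA. No other entry of either replicate carried a seed of these miRNAs. Outside the seed the family members were also alike. From miR-200b-3p to miR-200c-3p the differences over 23 bases were U11G, A22G and C23A, and from miR-200a-3p to miR-141-3p those over 22 bases were C17A and U22G. The settings for reads with a mismatch or with several matches are not given in the sources used here, so the split of reads between these pairs is uncertain. The GC content of the sequences lay between 38.1% and 52.2%, beside a median of 50% over 539 distinct mature sequences.

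All 7 miRNAs were found among the RefSeq mature miRNAs of GRCm38.p6. The 5′ ends were identical to RefSeq except for miR-203-3p in replicate 2, where the reported mature sequence began 1 nt further in. That start moved its seed from UGAAAUG to GAAAUGU. The reported sequence is the one that miRDeep2 chose for the entry, and reads of single isoforms were not analysed here. Such a shift was uncommon: the 5′ end differed between replicates in 15 of 460 entries with the same arm, and in 3 of the 303 of them that had 100 mature reads or more in each (0.99%), the others being miR-3473b and miR-709, which were chosen for mention after their values were seen. At the 3′ end, miR-200b, miR-141 and miR-205 were 1 nt longer than in RefSeq, miR-429 was 1 nt shorter, and miR-200a, miR-200c and miR-203 ended at the same base.

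The family lay at 2 loci, both on the minus strand of mm9. On chromosome 4 the hairpins of miR-200b (chr4:155429793-155429851), miR-200a (chr4:155429020-155429079) and miR-429 (chr4:155428026-155428082) followed each other in the direction of transcription, with gaps of 713 and 937 nt and a span of 1826 nt. By GENCODE vM1, miR-200b and miR-200a lay in introns of the protein-coding gene Ttll10 and of the noncoding transcript Gm13648, both on the same strand. miR-429 lay in an intron of Ttll10 and in an exon of Gm13648. On chromosome 6, miR-200c (chr6:124668342-124668404) and miR-141 (chr6:124667934-124667998) lay 343 nt apart within 471 nt, in an intron of the noncoding transcript Gm15884 on the same strand and between Phb2 and Ptpn6. miR-205 (chr1:195333661-195333718, minus strand) overlapped an exon of the long noncoding RNA 4631405K08Rik on the same strand. miR-203 (chr12:113369100-113369159, plus strand) overlapped no annotated gene, miRNA genes being left out of the search. It lay 3315 nt past Aspg and 15286 nt before Kif26a. The hairpins, folded with RNAfold, had minimum free energies from -28.6 (miR-200c) to -20.1 kcal/mol (miR-429), beside a median of -24.1 kcal/mol over the entries of replicate 1. Their lengths ran from 57 nt (miR-429) to 65 nt (miR-141). Per nt, the energies ran from -0.465 (miR-200a) to -0.353 kcal/mol (miR-429), beside a median of -0.392.

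These miRNAs were present at low levels. Together they held 1882 and 1940 mature reads in the replicates, which were 381 and 404 reads per 1000000 mature reads of the library (RPM), or 0.0392% ± 0.0016 of all mature reads (SD, n = 2). The 95% Wilson intervals of that share were 0.0364% to 0.0398% in replicate 1 and 0.0386% to 0.0422% in replicate 2. The miR-200 family made up 71.8% and 68.8% of these reads. Intervals here cover the counting error of reads only, and since PCR reads without molecular identifiers are not independent molecules, the true error is larger. Levels of different miRNAs also depend on how well each is ligated into the library, which was not measured. In bulk tissue, fewer cells of a type and less RNA per cell cannot be told apart.

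miR-200b-3p was the highest, with 556 and 543 reads in the replicates. Its levels were 112 RPM (104 to 122) and 113 RPM (104 to 123), a mean of 112.7 ± 0.34 RPM (SD, n = 2), and its rank by mean level was 221 among the 471 entries listed in both replicates. miR-200c-3p, which has the same seed but comes from the other locus, followed with 483 and 493 reads, or 97.7 and 103 RPM, at rank 228. miR-205-5p had 392 and 460 reads, or 79.3 RPM (71.8 to 87.6) and 95.7 RPM (87.4 to 105), at rank 233. These 3 miRNAs sat near the middle of all entries by rank, with 53.1%, 51.6% and 50.5% of entries below them.

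miR-200a-3p had 271 and 262 reads, or 54.8 and 54.5 RPM, at rank 256. miR-203-3p had 138 and 145 reads, or 27.9 and 30.2 RPM, at rank 290. miR-429-3p had 34 and 37 reads, or 6.88 RPM (4.92 to 9.61) and 7.70 RPM (5.59 to 10.6), at rank 363, with 22.9% of entries below it. miR-141-3p was listed in replicate 1 only, with 8 mature reads or 1.62 RPM (0.82 to 3.19), and got no value in replicate 2. A hairpin missing from a table is not thereby at 0: the muscle miRNA miR-208a-3p had 860 mature reads in replicate 1 and was not listed in replicate 2.

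**Figure D1:**
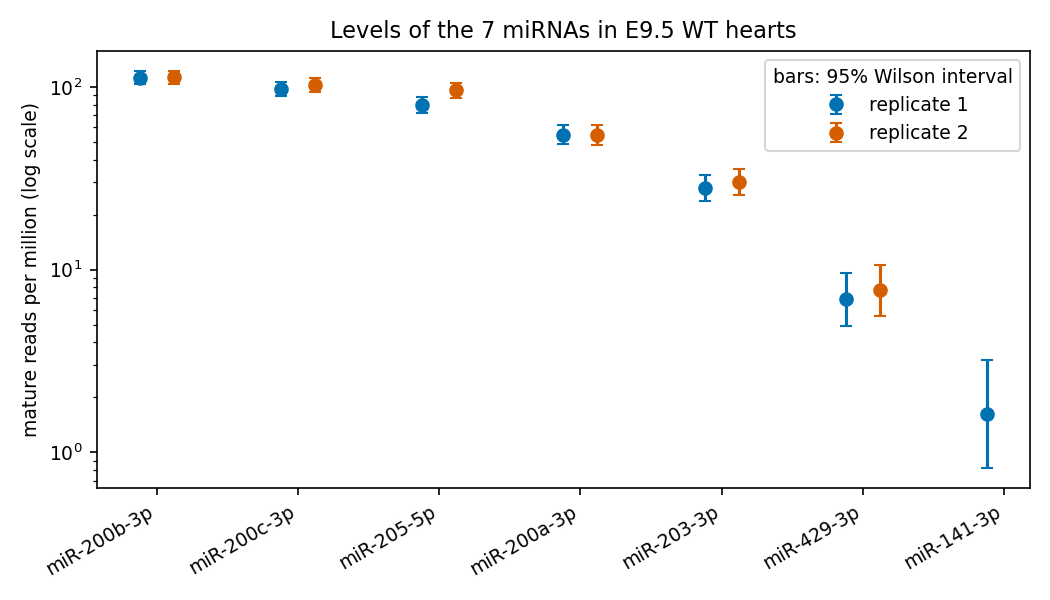
Level in RPM (log scale) of each of the 7 miRNAs in both replicates of E9.5 WT hearts, with points for single libraries and bars for the 95% Wilson interval of the read count. Levels run from 112.7 RPM (mean of replicates) for miR-200b-3p to 7.29 RPM for miR-429-3p, and miR-141-3p has a point in replicate 1 only.

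The order of the 6 miRNAs listed in both replicates was the same in each replicate, and the ranges of neighbours in that order did not overlap. By the gap between the edges of these ranges the closest neighbours were miR-200c-3p, at 97.7 to 103 RPM, and miR-205-5p, at 79.3 to 95.7 RPM, whereas by the mean ratio they were miR-200b-3p and miR-200c-3p (1.13, against 1.15 for miR-200c-3p over miR-205-5p). Counting intervals of neighbours did overlap: in replicate 2 that of miR-200c-3p, 93.9 to 112 RPM, overlapped those of both miR-200b-3p and miR-205-5p. The largest step was from miR-203-3p to miR-429-3p, 4.06-fold in replicate 1 and 3.92-fold in replicate 2. With 2 replicates of 1 group an exact permutation test by sign flips cannot give a two-sided p below 0.5, so the order is a description.

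**Figure D2:**
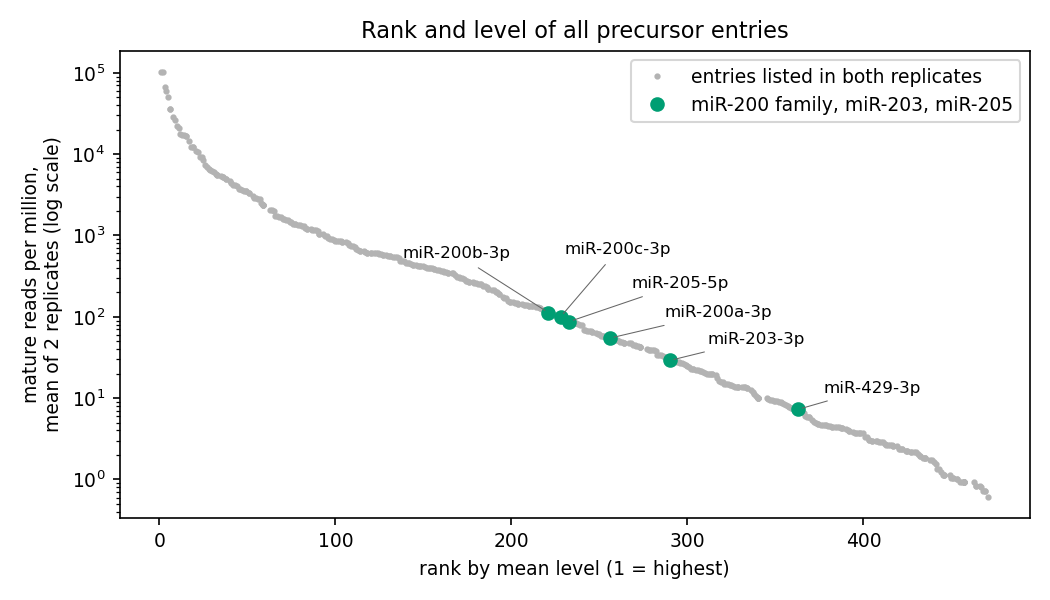
Mean level in RPM (log scale) of the 471 entries listed in both replicates against their rank, with the miR-200 family, miR-203 and miR-205 marked in green. The marked miRNAs lie between rank 221 (miR-200b-3p) and rank 363 (miR-429-3p).

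Hairpins of the same cluster differed in level more than the clusters did. At the chromosome 4 locus, miR-200b held 64.6% of the mature reads in replicate 1 and 64.5% in replicate 2. miR-200a held 31.5% and 31.1%, and miR-429 held 3.95% and 4.39%, of 861 and 842 reads. miR-200b was thus 2.05-fold and 2.07-fold above miR-200a, and 16.4-fold and 14.7-fold above miR-429. At the chromosome 6 locus, 98.4% of 491 reads in replicate 1 were of miR-200c (95% Wilson interval 96.8% to 99.2%), 60.4-fold the reads of miR-141. In replicate 2, where miR-141 was not listed, miR-200c had 493 reads and the make-up of the locus is not known.

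**Figure D3:**
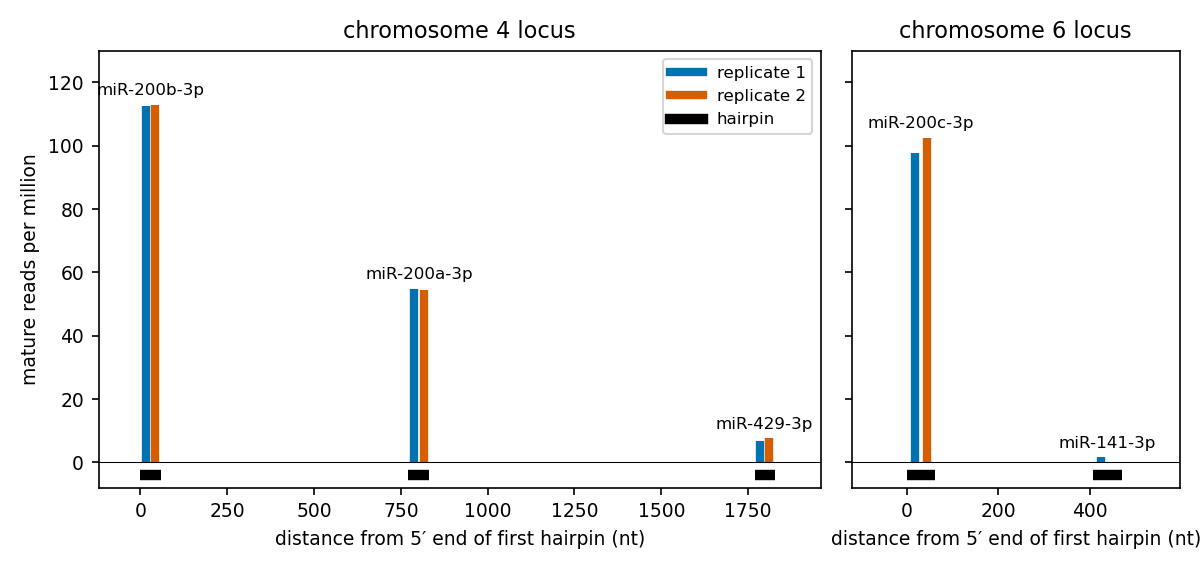
Level in RPM of each hairpin of the miR-200 family, as bars for replicate 1 and replicate 2, placed by distance in nt from the 5′ end of the first hairpin of its locus, with hairpins in black. In both loci the first hairpin has the highest bar, 112 and 113 RPM for miR-200b-3p and 97.7 and 103 RPM for miR-200c-3p.

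Summed over its listed hairpins, the chromosome 4 locus gave 174.7 ± 0.69 RPM (SD, n = 2) and the chromosome 6 locus 101 ± 2.28 RPM. Their ratio was 1.75 in replicate 1 and 1.71 in replicate 2, a mean of 1.73 ± 0.03. Grouped by seed instead, the miRNAs with AAUACUG had 1073 mature reads in either replicate, and those with AACACUG had 279 and 262. The ratio of these sums was 3.85 and 4.10, a mean of 3.97 ± 0.18. The reads of the first seed came from both loci, from miR-200b and miR-200c at near equal levels (ratio 1.15 and 1.10), whereas those of the second came almost wholly from miR-200a. Among the miRNAs outside the family, miR-205 was 2.84-fold and 3.17-fold above miR-203.

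Of the 6 miRNAs listed in both replicates, miR-200a had the most reads on the star arm. This 5p arm had 32 and 27 reads, which were 10.6% (95% Wilson interval 7.58% to 14.5%) and 9.34% (6.50% to 13.3%) of its mature and star reads. The star sequence that the tables gave for it is shown because no other miRNA of the set listed in both replicates had as many star reads:
miR-200a star arm (5p): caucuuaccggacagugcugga

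The star arm of miR-200b had 10 and 5 reads, or 1.77% and 0.912%. Over all entries with at least 20 mature and star reads the median was 0.952% in replicate 1 (413 entries) and 0.912% in replicate 2 (417 entries), the upper quartile was 7.41% and 9.20%, and 30.8% and 32.1% of those entries had 0 star reads. miR-200c, miR-203 and miR-205 had 0 or 1 star read in each replicate. Where the count was 0, 3 reads of the total give the limit, a share of up to 0.609% for miR-200c in replicate 2, up to 2.17% for miR-203 in replicate 1 and up to 0.765% for miR-205 in replicate 1. miR-429 had 0 star reads in both replicates, which at 34 and 37 reads allows a share of up to 8.82% and 8.11%. miR-141 had 2 star reads beside its 8 mature reads in replicate 1, a share of 20% with a wide interval (5.67% to 51.0%).

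The miRDeep2 score, a log-odds score that the hairpin is a true miRNA precursor and that takes star reads into account, varied widely between replicates for the miRNAs with 0 or 1 star read. miR-205 scored 2.5 in replicate 1, with 0 star reads, and 230 in replicate 2, with 1 star read. miR-203 scored 2.6 with 0 star reads and 76 with 1. miR-200c scored 240 in replicate 1, with 1 star read, and 2.7 in replicate 2, with 0.

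The RPM of these 3 miRNAs differed by at most 1.21-fold between replicates. The miRNAs with the same kind of star count in both replicates kept similar scores, 280 and 280 for miR-200b, 150 and 140 for miR-200a, and 2.1 and 2.1 for miR-429. Among all entries with 100 to 1000 mature reads, the median score was 1.9 for the 40 with 0 star reads and 150 for the 88 with at least 1 in replicate 1, and 1.7 (47 entries) and 140 (80 entries) in replicate 2. In 9 entries of that range, 3 of them being miR-200c, miR-203 and miR-205, star reads were listed in 1 replicate only. The score was higher with star reads in 7 of the 9, with medians of 180 and 2.5. The exceptions, named after their values were seen, were miR-1968-5p and miR-704, whose scores were equal in both replicates.

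**Figure D4:**
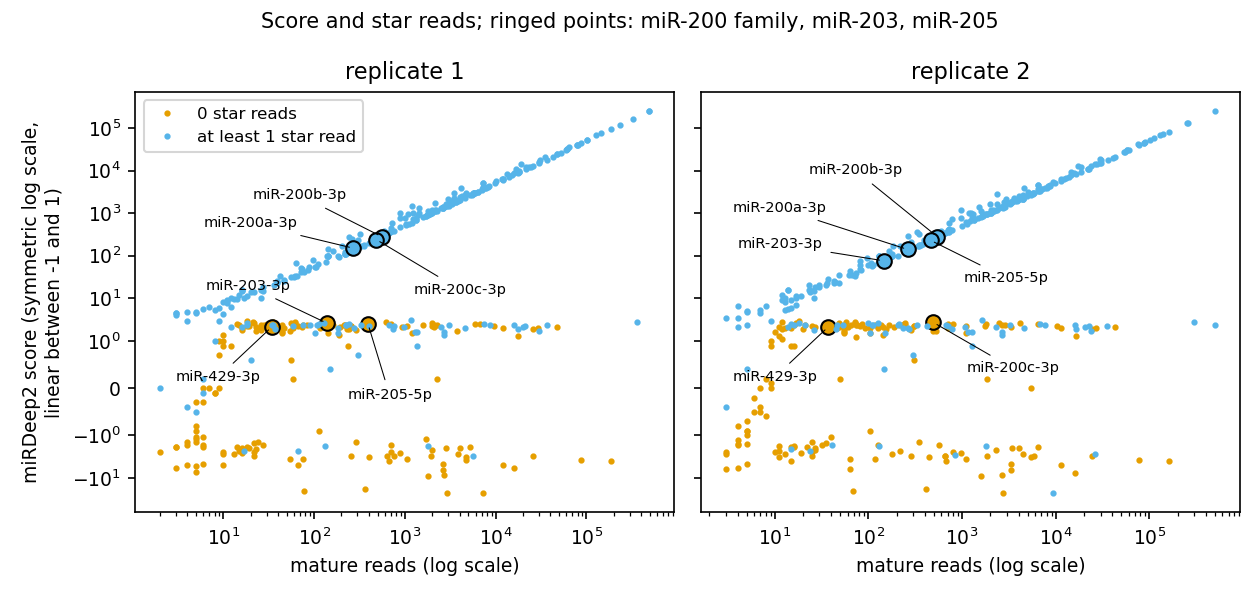
miRDeep2 score (symmetric log scale) against mature reads (log scale) for the entries listed in both replicates, with 1 panel per replicate, orange for 0 star reads, blue for at least 1, and black rings for the miR-200 family, miR-203 and miR-205. miR-203 and miR-205 move from 2.6 and 2.5 in replicate 1 to 76 and 230 in replicate 2, and miR-200c moves from 240 to 2.7.

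The replicates were compared entry by entry with the two-sided exact binomial test on mature reads, adjusted by the Benjamini-Hochberg method over 431 entries listed in both with at least 20 reads in sum. This test sets 1 library against another and covers counting error only. Of all entries tested, 41.1% passed (adjusted p at most 0.05), 27.6% higher in replicate 2 and 13.5% higher in replicate 1. Of the 6 miRNAs, 1 passed. The median size of the log2 ratio was 0.09 for the 6 and 0.19 for all entries. Among the 143 entries whose summed reads lay within the range of the 6, 21.7% passed and the median was 0.20.

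The miRNA that passed was miR-205-5p, with 392 and 460 reads, 1.21-fold higher in replicate 2 (log2 ratio 0.27, exact binomial test, adjusted p = 0.0188). The call was lost when the libraries were scaled by edgeR's TMM (log2 ratio 0.21, adjusted p = 0.0755) or by DESeq2's size factors (0.20, adjusted p = 0.0964). These scalings moved the median log2 ratio of all entries from 0.07 to 0.01 and 0.00, and the share of passing entries that were higher in replicate 2 from 67.2% to 48.3% and 44.3%.

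Marker miRNAs of other cell types also differed between these libraries. The liver marker miR-122, the only name of its list that was listed, was at 421 RPM in replicate 1 and 554 RPM in replicate 2. The erythroid list summed to 1130 RPM over 2 of its 5 names in replicate 1 and to 1369 RPM over 3 in replicate 2, with miR-144 listed only in the latter. Nearly all of it was miR-486a-5p, which muscle also expresses and which was listed at 2 hairpins. These were at 1104 and 1360 RPM and at 1065 and 1327 RPM in replicates 1 and 2. The sum held 1104 RPM of it in replicate 1 and 1327 RPM in replicate 2, so it mixed the hairpins. The erythroid miR-451a was at 25.9 and 26.4 RPM. The list for mesenchyme and smooth muscle was at 80919 and 69574 RPM, over 5 of 6 names, of which miR-143-3p alone was 73158 and 61935 RPM. The endothelial list, at 28956 and 28724 RPM, and the pluripotent list, at 4028 and 3912 RPM, were nearly level. The heart muscle list was at 114245 RPM over 5 names in replicate 1 and at 118523 RPM over 4 in replicate 2. The neural list was at 48.4 RPM over 2 names in replicate 1 and at 37.0 RPM over 1 in replicate 2. The part of these lists in the difference of miR-205 was not tested.

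The other 5 miRNAs had adjusted p values from 0.604 (miR-200c-3p, log2 ratio 0.07) to 0.999 (miR-200a-3p, log2 ratio -0.01). miR-429-3p had the largest ratio among them, 0.16 on the log2 scale, at 34 and 37 reads. A p that misses the threshold does not show that the libraries held equal amounts.

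**Figure D5:**
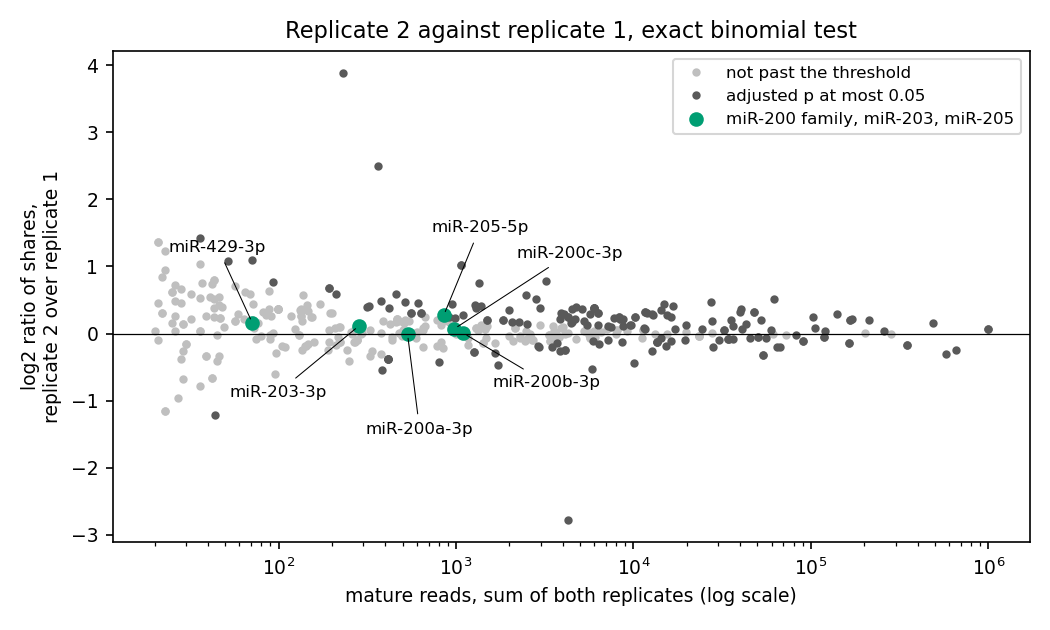
Log2 ratio of shares, replicate 2 over replicate 1, against the summed mature reads of both replicates (log scale) for the 431 entries tested, with dark points for entries that passed the exact binomial test and green points for the miR-200 family, miR-203 and miR-205. The green points lie between -0.01 (miR-200a-3p) and 0.27 (miR-205-5p).

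Other miRNAs known from epithelia were more abundant as a list. All 8 names (miR-182, miR-183 and miR-96, a cluster best known from sensory epithelia; miR-192, miR-194 and miR-215 of gut and kidney; miR-31 of skin and gut; miR-375 of endocrine and gut epithelium) were listed in both replicates. With each mature sequence counted once they summed to 1653 and 1579 RPM, 4.13 ± 0.30-fold (SD, n = 2) the sum of the miR-200 family, miR-203 and miR-205. miR-182-5p was the highest, with 2100 and 2031 reads, followed by miR-215-5p with 1961 and 1844 and miR-192-5p with 1979 and 1739. miR-192-5p and miR-215-5p have related sequences, so their split is uncertain too.

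The others covered a wide range. miR-183-5p had 1100 and 995 reads, and miR-194-5p had 717 and 731 at its chromosome 19 hairpin and 641 and 663 at its chromosome 1 locus. miR-96-5p had 213 and 167 reads and miR-31-5p had 77 and 66. miR-375-3p had 22 and 17, below miR-429-3p. Of the 11 entries of this list, some of which repeat a mature sequence, 1 passed the binomial test that 41.1% of all entries passed. It was miR-192-5p, lower in replicate 2 (log2 ratio -0.15, adjusted p = 0.0062).

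The heart muscle list stood 297-fold above the miR-200 family, miR-203 and miR-205, at 114245 and 118523 RPM. Of its 5 names, 5 were listed in replicate 1 and 4 in replicate 2, where miR-208a was not. miR-1a-1-3p, the main muscle miRNA, had 492873 and 503921 reads. The endothelial miR-126a-3p had 143108 and 138053 reads, 73.6-fold the summed reads of the 7 miRNAs. The list for mesenchyme and smooth muscle was 192-fold above them. In it, miR-199a-3p had 7204 and 6448 reads, and miR-214-5p had 243 and 263, with more reads, 319 and 305, on its star arm.

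The remaining lists were closer to the epithelial level. The miR-302 and miR-367 list of pluripotent cells was 10.1-fold above the sum of the 7 miRNAs, the erythroid list, carried by miR-486a-5p, 3.18-fold and the liver list 1.24-fold. The erythroid value rests on a different hairpin of miR-486a-5p in each replicate. The neural list was lower, at 0.109-fold, with miR-9-5p at 237 and 178 reads and miR-124 listed in replicate 1 only, at 2 reads. From which cells these reads came was not tested.

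The entries nearest in level, by the distance of their log2 shares over the 2 libraries, were miR-331-3p for miR-200b-3p (588 and 555 reads), miR-106a-5p for miR-200c-3p (506 and 491) and miR-5099 for miR-205-5p (400 and 442). For miR-200a-3p it was miR-1188-5p (273 and 263 reads), for miR-203-3p miR-376a-5p (149 and 146) and for miR-429-3p miR-6929-3p (34 and 38). Over 2 libraries of 1 group this likeness is in level only.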

How the data were processed

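Total RNA of 2 samples of E9.5 WT hearts was sequenced as small RNA libraries (TruSeq Small RNA kit, single-end reads of 50 nt). The authors ran miRDeep2 on mm9 and deposited, for each replicate, raw read counts per known precursor (mature, loop and star) without normalization, and a miRDeep2 score, rounded in the deposited tables. Versions of miRDeep2 and miRBase and the settings for mismatches and several matches are not given in the sources used here. Several hairpins with the same mature sequence listed equal counts, so their reads entered the total more than once. Both hairpins of miR-133a-3p, for example, had 60757 reads in replicate 1 and 57080 in replicate 2.

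Every precursor sequence was identical to NCBIM37, the assembly that mm9 names. Genes are of GENCODE vM1. Where the tables said that reads lay on the arm opposite the named one, which held for all members except miR-205, the name was changed to that arm. Entries were paired by an overlap of at least 50% of both precursors. RPM are mature reads per 1000000 mature reads of the replicate, summed over all entries, so that a sequence listed at several hairpins counts at each. Intervals are 95% Wilson intervals. The binomial test, tested on simulated data with 196 of 426 entries changed 2-fold, recovered 89.8% with 2.6% false calls, under sampling noise only. List sums count each mature sequence once, over the same total of all entries.

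Named were all members, the entry nearest in level to each, the other epithelium-associated miRNAs, entries sharing a seed, and reference miRNAs. The members and lists were chosen with earlier results of these data known. Alternatives changed the scaling (edgeR 4.0.16, DESeq2 1.42.0, R 4.3.3), the read minimum, the counting of shared sequences, the reads used and the replicate. Leaving out entries whose arm differs between replicates was chosen after seeing the data. Python 3.11.15, numpy 2.4.6, pandas 2.3.3, scipy 1.17.1, matplotlib 3.10.9 and RNAfold 2.7.2 were used. The other experiments of the study were not analysed here.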

Additional observations from a re-analysis of the deposited data

How the results depend on the processing

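No paired analysis was possible because there is only 1 group of samples. The order of the 6 miRNAs listed in both replicates was kept under every alternative run that used both replicates. Counting each mature sequence once, which takes repeated copies out of the total, raised the sum of the 7 miRNAs from 392 to 537 RPM by its own construction. With all reads of the precursor, star reads included, the ratio of the chromosome 4 to the chromosome 6 locus went from 1.73 to 1.80 and that of the seeds AAUACUG to AACACUG from 3.97 to 3.60. The number of entries that differed between the replicates was 177 as reported and between 133 (each mature sequence once, 343 tested) and 184 (all reads of the precursor) otherwise, within 1.5 times of it. The log2 ratio of miR-200b-3p, 0.01 and not past the threshold, changed sign to -0.0524 with TMM, -0.0620 with DESeq2's size factors and -0.00972 with all reads of the precursor. The adjusted p of miR-205-5p, 0.0188 by the exact binomial test, was 0.0755 with TMM and 0.0964 with DESeq2's size factors. Leaving out a replicate only returns the value of the other, so it is no check of stability here, and it could not be done for the test, which needs both. Reads of 34 to 37 for miR-429 and 8 for miR-141 limit what can be said of those miRNAs.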
